A study of Homo sapiens with 8 samples.

Results

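The 38 genes described here encode proteins that store, make, take up or oxidise fatty acids and cholesterol. They were fixed by name, not by their values, and all 38 were found among the 43682 gene symbols counted in UM-RC-2 RNA. By function they comprise 13 genes of lipid storage, 13 of synthesis, 4 of uptake and 8 of oxidation. UM-RC-2 is an established line of clear cell renal cell carcinoma with a VHL mutation. Cells were infected with lentivirus to express VHL, or a construct named VEC, stably, and were selected with 10 µg/ml blasticidin. There were 2 VEC and 2 VHL libraries, with no further treatment named for any of them. The labels do not say whether the replicates were separate cultures or separate infections, so p-values speak for these libraries alone. Acetylation tables of the series name regions without positions and were not used for these genes.

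Clear cell carcinoma is named after cytoplasm that looks empty once its lipid and glycogen are washed out in sectioning. VHL marks the alpha subunits of hypoxia-inducible factors (HIF) for degradation, and cells that lack VHL function keep HIF active in normal oxygen. Lipid enters cells through lipoprotein receptors and fatty acid carriers, or is built from citrate by ACLY, ACACA and FASN under the control of SREBP factors. It is stored as triglyceride and cholesteryl ester in droplets coated by perilipins, and is burned in mitochondria after import by the carnitine shuttle.

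Replicate 1 libraries are labelled total RNA and held 21306867 (VEC) and 16230291 (VHL) counts; replicate 2 libraries are labelled polyA RNA and held 50027348 and 46609709. Pseudogenes took at most 2.04% of the counts in replicate 1, but 24.9% and 31.2% in replicate 2. Across 21673 genes, libraries of the same number correlated at 0.978 or more and libraries of the same group at 0.531 or less, on log2(CPM + 1). VHL was compared with VEC within each replicate number, with the number as a blocking term (the blocked fit), which leaves 1 residual degree of freedom. Without that term, 0 of 24417 genes passed in edgeR (22, or 0.0901%, at an unadjusted p under 0.05), and 0 of the lipid genes had an unadjusted p under 0.05. All calls below come from the blocked fit, with Benjamini-Hochberg adjusted p under 0.05 as the threshold. With 1 residual degree of freedom, the error of a gene was estimated largely from other genes. Its SE (standard error, given after ±) and p-value therefore do not measure how well its own 2 pairs match. ACADVL, at log2 -0.55 in both pairs, had an SE of 0.21, and SCARB1, at -0.06 and -0.86, had 0.22. Levels are given as CPM, read counts scaled to library size but not to gene length. VHL itself was at 37.1 CPM in VEC and 146 in VHL of the first pair, and at 88.9 and 151 in the second, a rise of 1.36 ± 0.23 on the log2 scale (adjusted p = 4.63e-07). CA9, a textbook HIF target, fell from 67.5 to 1.55 and from 61.8 to 1.4 CPM (adjusted p = 2.04e-76). Renal markers (10 genes) were all present, the 4 endothelial markers were at 0 in every library, and 4 of 5 hepatocyte markers never exceeded 3 counts.

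In cells with VHL, the droplet coat gene PLIN2 and the lipoprotein receptor gene VLDLR fell, while LPIN1, FASN, ELOVL5, ELOVL6 and SQLE rose. PLIN2 was 1.77-fold and VLDLR 1.73-fold lower, and the 5 risen genes were between 1.6-fold (LPIN1) and 1.88-fold (ELOVL5) higher. Of the 38 genes, 36 passed the filter on low counts, all but LIPE and DGAT2, and 7 of these 36 were called. Among all tested genes 3.10% were called (0.749% higher, 2.35% lower), and among tested protein-coding genes 3.65% were. By direction, 5 of 36 rose, against 1.15% of protein-coding genes, and 2 of 36 fell, against 2.51%. When protein-coding genes were fitted alone, 6 of 36 rose and 4 fell, against 2.55% and 4.57%. The count depended on which genes were tested with them. Without a filter, 2 of 38 (ELOVL5 and VLDLR) were called, where 1.95% of all 32804 genes were. With at least 20 counts required in each library, 12 of 35 were called, 7 higher and 5 lower. Of all 12141 genes, 9.73% were called there, 3.75% higher and 5.98% lower. The median log2 change of the 36 was 0.05, beside 0.01 for protein-coding genes, so the list as a whole did not move one way. Of the 36 genes, 15 were higher with VHL in both pairs and 10 lower in both, where 29.9% and 32.2% of protein-coding genes were. In 5 genes both pairs were higher by at least 0.5 on the log2 scale and in 3 both were lower by as much, against 3.39% and 5.92% of protein-coding genes. Both VHL libraries lay above both VEC libraries in 7 of the 36 and below them in 3, against 7.08% and 4.95%. Lower transcript levels per cell and fewer cells with a transcript cannot be told apart in bulk RNA.

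**Figure D1:**
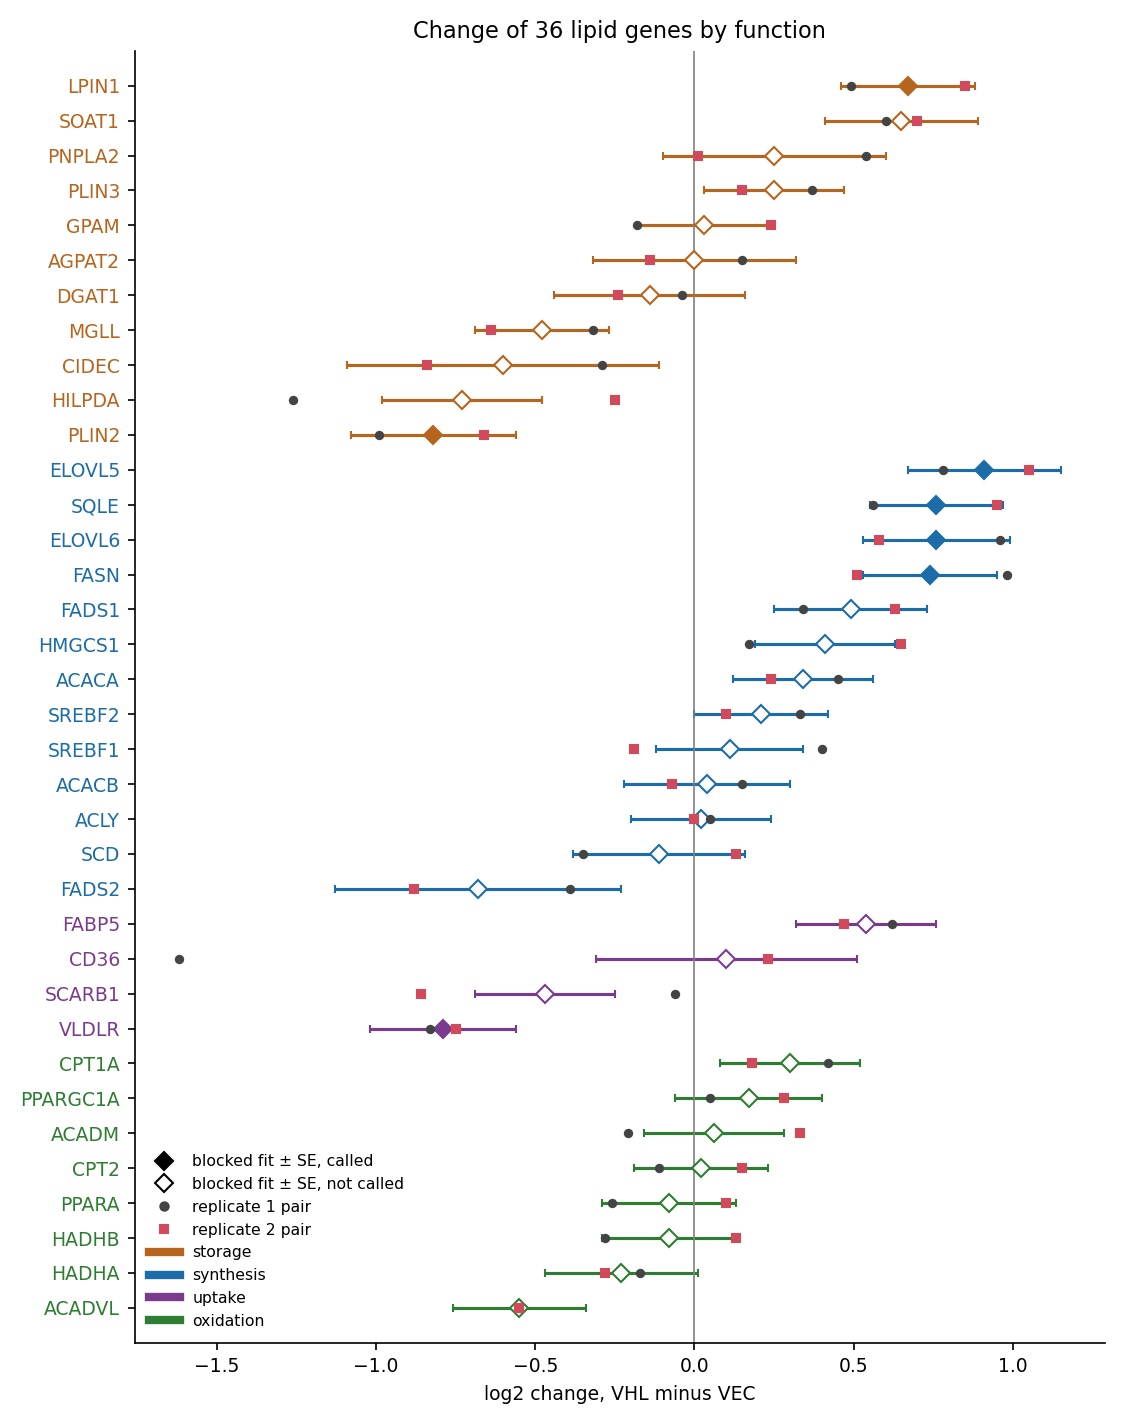
Log2 change (VHL minus VEC) of the 36 tested lipid genes, ordered by function. Diamonds are the blocked fit with its SE, filled where called, and small circles and squares are the changes within the replicate 1 and replicate 2 pairs. PLIN2 and VLDLR lie on the left with both pairs below 0, ELOVL5, SQLE, ELOVL6, FASN and LPIN1 on the right with both pairs above 0, and genes of oxidation between -0.55 (ACADVL) and 0.30 (CPT1A).

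The start regions of PLIN2 and VLDLR, which fell, and ELOVL5 and ELOVL6, which rose, are shown so that both directions can be compared. Each window runs from 250 bases before to 50 bases after the transcription start, 5′ to 3′ on the gene's strand, from RefSeq on GRCh38.p14. Capitals mark matches on either strand to ACGTG or GCGTG, the core of the hypoxia response element; a match on the opposite strand reads CACGT or CACGC.
PLIN2, chr9:19127443-19127742, minus strand: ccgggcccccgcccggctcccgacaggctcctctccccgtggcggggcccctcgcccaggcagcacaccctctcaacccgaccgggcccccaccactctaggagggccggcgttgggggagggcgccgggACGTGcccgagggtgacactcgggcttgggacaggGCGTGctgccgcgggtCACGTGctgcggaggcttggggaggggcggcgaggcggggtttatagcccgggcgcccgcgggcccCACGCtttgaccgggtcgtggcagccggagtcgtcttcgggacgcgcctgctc
VLDLR, chr9:2621537-2621836, plus strand: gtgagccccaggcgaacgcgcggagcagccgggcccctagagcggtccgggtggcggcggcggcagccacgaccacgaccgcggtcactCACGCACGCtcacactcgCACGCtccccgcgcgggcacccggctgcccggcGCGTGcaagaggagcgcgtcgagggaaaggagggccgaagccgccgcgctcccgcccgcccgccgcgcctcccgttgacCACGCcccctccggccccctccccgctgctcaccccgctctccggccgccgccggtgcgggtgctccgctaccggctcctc
ELOVL5, chr6:53348901-53349200, minus strand: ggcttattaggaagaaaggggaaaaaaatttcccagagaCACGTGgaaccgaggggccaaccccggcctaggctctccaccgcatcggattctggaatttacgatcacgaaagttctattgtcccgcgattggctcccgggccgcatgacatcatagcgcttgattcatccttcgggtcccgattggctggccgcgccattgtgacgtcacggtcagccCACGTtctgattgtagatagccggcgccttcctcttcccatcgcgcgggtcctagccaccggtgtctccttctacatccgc
ELOVL6, chr4:110198566-110198865, minus strand: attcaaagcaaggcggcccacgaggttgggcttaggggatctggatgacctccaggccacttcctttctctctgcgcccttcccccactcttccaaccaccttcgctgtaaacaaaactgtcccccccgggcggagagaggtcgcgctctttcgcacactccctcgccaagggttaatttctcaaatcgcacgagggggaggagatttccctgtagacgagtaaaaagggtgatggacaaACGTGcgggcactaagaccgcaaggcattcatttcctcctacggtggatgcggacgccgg

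PLIN2 and VLDLR each held 5 matches, ELOVL5 held 3 and ELOVL6 held 1, so genes that fell and genes that rose both carried the core. Among the lipid genes searched, 3 of 3 that rose, LPIN1 included, and 2 of 2 that fell held it. So did 18 of the 25 others. A CACGTG, as in PLIN2 and ELOVL5, counts on both strands, and the first 2 matches of VLDLR overlap. Such a short core is common: 48.4% of all 35116 RefSeq windows held ACGTG or GCGTG, as did 27 of the 48 windows of the 30 lipid genes that were searched. TCACNCCAC, a form of the sterol response element bound by SREBP, was found on either strand in 1.13% of all windows and in 3 of the 48, those of CIDEC, PNPLA2 and SREBF2. Of the 5 lipid genes that rose, 3 were searched. FASN and SQLE were not, so neither motif was looked for in them. A match is a description of letters and not a site of binding.

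Droplet coat genes were led by PLIN2, which encodes the perilipin of droplets in most cell types outside fat. In replicate 1, VEC cells held PLIN2 at 848 CPM and VHL cells at 428 CPM; replicate 2 gave 257 and 163 CPM. It was lower with VHL within both pairs, but the groups overlap across replicates, since VHL of replicate 1 exceeded VEC of replicate 2. Its log2 change was -0.82 ± 0.26 (SE, n = 2 per group, edgeR adjusted p = 0.0448). HILPDA, a small HIF-induced inhibitor of the lipase ATGL, was at 21.4 and 8.9 CPM in VEC and VHL of replicate 1, against 30.4 and 25.5 CPM in replicate 2. Its size depended on the pair (log2 -1.26 and -0.25), and it was not called (-0.73 ± 0.25, adjusted p = 0.083). It was called among protein-coding genes alone (adjusted p = 0.0212) and under the stricter filter (0.0157). PLIN3, the coat protein of small droplets, was at 26.9 and 34.7 CPM in replicate 1 and at 34.6 and 38.4 CPM in replicate 2, and was not called. CIDEC, which promotes droplet fusion, had between 36 and 84 counts and was not called (log2 -0.60 ± 0.49). A row for its pseudogene held 37 to 124 counts, so its reads may be split.

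Lipase genes of the droplet were not called. PNPLA2, which encodes ATGL and starts triglyceride breakdown, had 77 and 91 counts in replicate 1 and 278 and 250 in replicate 2. MGLL, the monoglyceride lipase of the last step, went from 116 to 92.4 CPM and from 60.2 to 38.7 CPM (log2 -0.48 ± 0.21, adjusted p = 0.273). LIPE, hormone-sensitive lipase, had 6, 9, 0 and 3 counts in VEC and VHL of replicate 1 and VEC and VHL of replicate 2. Its antisense row LIPE-AS1 had 0 counts in both replicate 1 libraries, against 1905 and 2068 in replicate 2, and the use of strand in counting is not given.

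Glyceride and cholesteryl ester enzymes held 1 call, LPIN1, a phosphatidate phosphatase that makes diglyceride and was reported as a HIF target in other cells. VHL cells held LPIN1 at 63.1 and 63.5 CPM in replicates 1 and 2, against 44.9 and 35.1 CPM in VEC cells. Both VHL libraries were above both VEC libraries, and the log2 change was 0.67 ± 0.21 (adjusted p = 0.0489). SOAT1, which esterifies cholesterol for droplets, was also higher in both VHL libraries, at 141 and 213 CPM and at 198 and 322 CPM. It missed the threshold (log2 0.65 ± 0.24, adjusted p = 0.123) but passed in 4 of 6 other blocked fits, which changed the tool, scaling, filter or genes counted. GPAM, the mitochondrial acyltransferase of the first step, had log2 changes of -0.18 and 0.24 in the pairs. AGPAT2, of the second step, had 0.15 and -0.14, and DGAT1, of the last step, had -0.04 and -0.24. None of these 3 was called. DGAT2, the other enzyme of the last step, had 3, 11, 0 and 7 counts and was not tested.

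**Figure D2:**
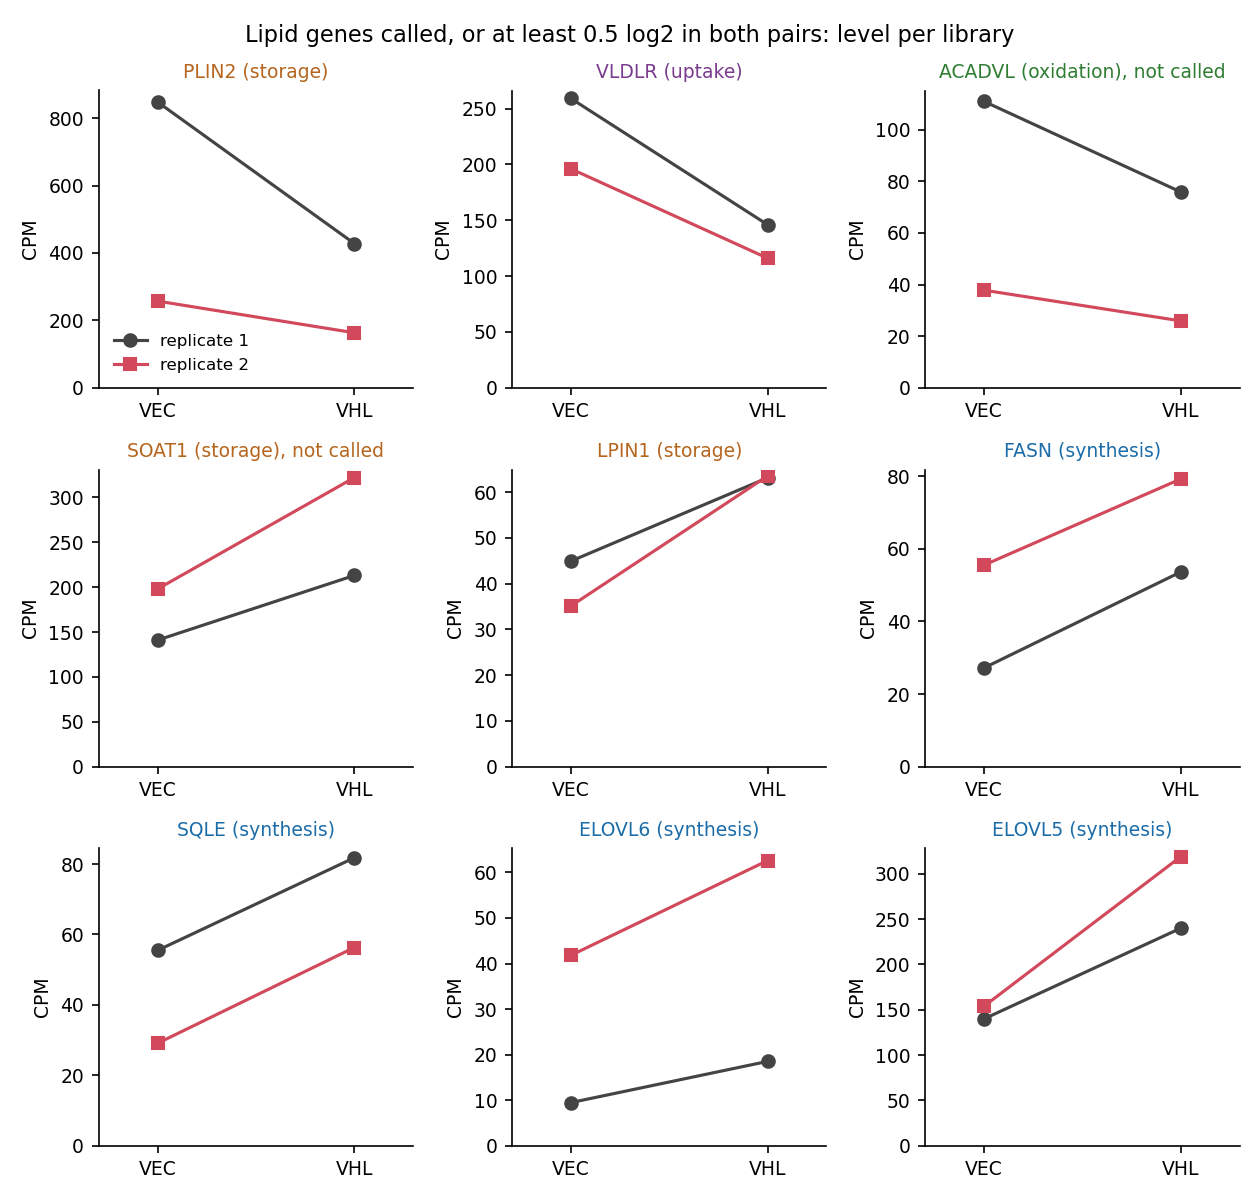
Level in CPM per library of the 7 called lipid genes and of ACADVL and SOAT1, which moved by at least 0.5 on the log2 scale in both pairs without being called. Lines join VEC and VHL of the same replicate number. Every line of PLIN2, VLDLR and ACADVL slopes down and every line of the other 6 slopes up, while the replicates sit at different levels, as for PLIN2 at 848 and 257 CPM in VEC.

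Fatty acid synthesis was led by FASN, which builds palmitate. VEC cells held FASN at 27.2 and 55.5 CPM in replicates 1 and 2, and VHL cells at 53.6 and 79.2 CPM. It rose within both pairs, with a log2 change of 0.74 ± 0.21 (adjusted p = 0.0234), although the groups overlap across replicates. The enzymes before FASN were not called. ACLY, which makes acetyl-CoA from citrate, was nearly level within each pair, at 167 and 173 CPM and at 97.3 and 97 CPM. ACACA, the cytosolic acetyl-CoA carboxylase, was at 146 and 199 CPM and at 110 and 129 CPM (adjusted p = 0.616), and ACACB, its mitochondrial form, had log2 changes of 0.15 and -0.07.

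Of the enzymes that lengthen or desaturate fatty acids, ELOVL5 and ELOVL6 rose, and SCD, FADS1 and FADS2 were not called. ELOVL5, which elongates polyunsaturated fatty acids, went from 140 to 240 CPM and from 154 to 319 CPM. Both VHL libraries exceeded both VEC libraries, and the log2 change of 0.91 ± 0.24 (adjusted p = 0.0072) was the largest rise among the 36 genes. ELOVL6, which elongates palmitate, went from 9.46 to 18.5 CPM and from 41.8 to 62.6 CPM (log2 0.76 ± 0.23, adjusted p = 0.031). Its VEC library of replicate 2 lay above the VHL library of replicate 1, so the groups overlap. SCD, the desaturase that makes oleate, was at 827 and 651 CPM and at 701 and 768 CPM, with opposite signs in the pairs. FADS1 was higher in both VHL libraries (214 and 271 CPM, 163 and 253 CPM) and FADS2 lower in both, with 51 and 31 counts and 165 and 79 counts. These neighbouring desaturase genes of polyunsaturated fatty acids thus had opposite signs, at log2 0.49 ± 0.24 (adjusted p = 0.353) and -0.68 ± 0.45 (adjusted p = 0.617).

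Sterol synthesis held 1 call, SQLE, which oxidises squalene. SQLE went from 55.5 to 81.8 CPM and from 29.1 to 56.3 CPM, both VHL libraries lying above both VEC libraries by a small margin. The log2 change was 0.76 ± 0.21 (adjusted p = 0.018). HMGCS1, an early enzyme of the same route, was at 85.1 and 95.6 CPM and at 77.1 and 121 CPM (log2 0.41 ± 0.22, adjusted p = 0.431). The regulators SREBF1 and SREBF2 were not called, with log2 changes of 0.40 and -0.19 in the pairs for SREBF1 and of 0.33 and 0.10 for SREBF2. In all, 4 of the 13 synthesis genes rose and 0 fell, where 1.15% and 2.51% of protein-coding genes did. An unadjusted p under 0.05 in edgeR was found for 5 of the 13, and for 12.5% of all tested genes. That share was 18.2% where protein-coding genes were fitted alone. DESeq2 called 3 of the 13 (ELOVL5, FADS1 and SQLE) and 4.93% of all genes fitted. Genes to which DESeq2 gave no adjusted p, FADS2 among them, count as not called in these shares. FASN and ELOVL6 were not called by DESeq2 (adjusted p = 0.0833 and 0.0569).

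Uptake held 1 call. VLDLR, the receptor for very-low-density lipoprotein and a HIF target, went from 259 to 146 CPM and from 196 to 116 CPM. Both VHL libraries were below both VEC libraries, and the pairs were close to each other in size (log2 -0.83 and -0.75, blocked -0.79 ± 0.23, adjusted p = 0.0271). The antisense row VLDLR-AS1 had at most 10 counts in any library. VLDLR and ELOVL5 were the lipid genes called in all 6 other blocked fits. SCARB1, the receptor for high-density lipoprotein, differed between pairs, at 29.6 and 28.3 CPM in replicate 1 and at 44.3 and 24.3 CPM in replicate 2 (adjusted p = 0.33). FABP5, a carrier of fatty acids in the cytosol, was at 14.1 and 21.8 CPM and at 78.1 and 108 CPM (log2 0.54 ± 0.22, adjusted p = 0.183), and was called in 2 of 6 other blocked fits. CD36, a fatty acid translocase, had 3 and 0 counts in replicate 1 but 601 and 630 in replicate 2, so its comparison rests on the replicate 2 pair. Markers of fat cells moved with the replicate number as CD36 did, with 0 and 1 summed counts of 5 genes in replicate 1 and 1398 and 1270 in replicate 2. These came from ADIPOQ and LEP, while PLIN1, FABP4 and CIDEA had at most 3 counts in any library. Markers of leukocytes and macrophages likewise summed to 18.4 and 12.3 CPM in replicate 1 and to 87.5 and 82.4 CPM in replicate 2. LYZ and CD68 carried that sum, while CD14 had 2 to 4 counts in every library and CSF1R had 16 and 9 counts in replicate 1 and 0 and 1 in replicate 2. Of smooth muscle and fibroblast markers, DES had 0 and 1 counts in replicate 1 and 655 and 289 in replicate 2. ACTA2 had 18 and 26 counts in replicate 1 and 125 and 67 in replicate 2. The other markers of that list, COL1A1, COL3A1 and PDGFRB, had at most 1 count in any library. What part cells with any of these markers had in the level of CD36 was not tested.

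**Figure D3:**
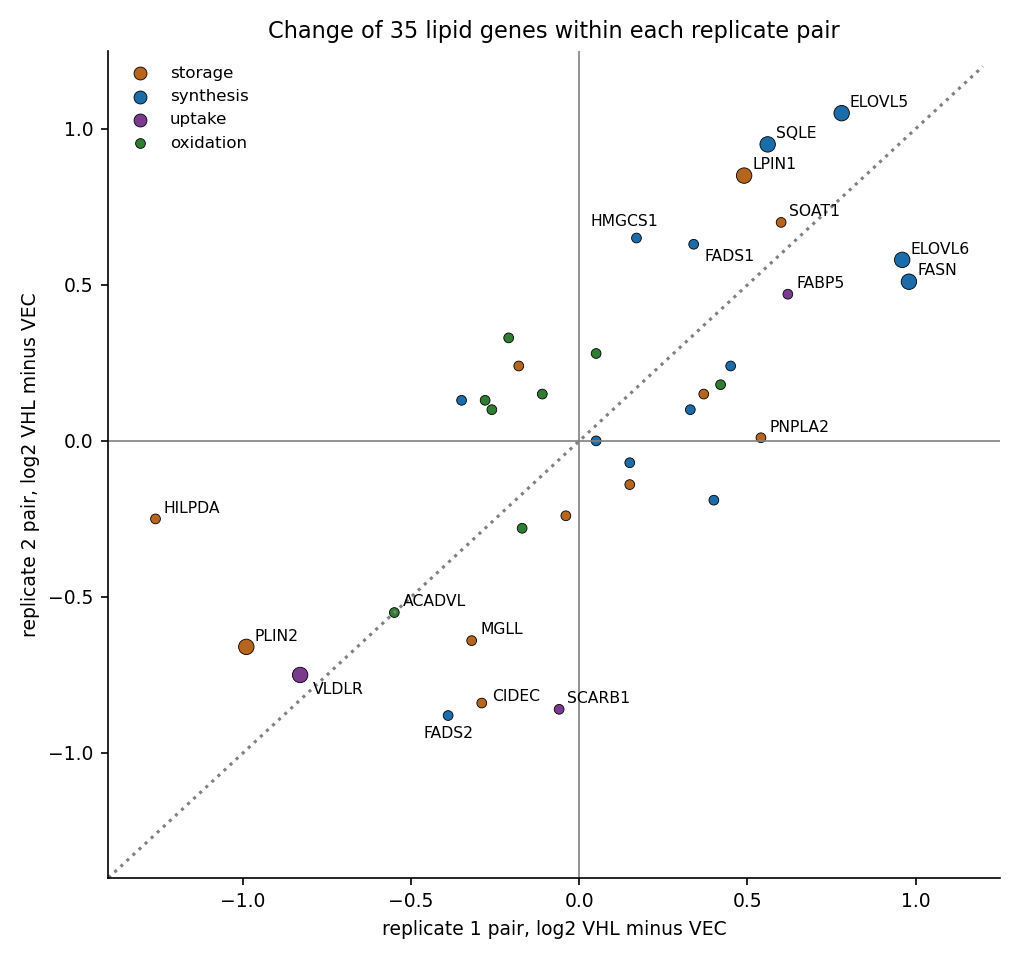
Log2 change (VHL minus VEC) within the replicate 1 pair (x) and the replicate 2 pair (y) for 35 lipid genes, all tested ones but CD36, coloured by function, with called genes larger. The dotted line marks equal change. Of the 36 tested genes, 15 were higher in both pairs, 10 lower in both and 11 opposite, and HILPDA and SCARB1 lie far from the line.

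None of the 8 genes of fatty acid oxidation was called in the blocked edgeR fit over all 24417 genes, where 3.10% were. At so low a share, no call among 8 genes says little about oxidation. ACADVL alone had an unadjusted p under 0.05, and it alone was called by DESeq2 (adjusted p = 4.11e-05). An unadjusted p under 0.05 in edgeR was found for 12.5% of all tested genes, and DESeq2 called 4.93% of all genes fitted. ACADVL, the dehydrogenase for very long chains, went from 111 to 75.9 CPM and from 37.8 to 25.9 CPM, with log2 changes of -0.55 in both pairs (blocked -0.55 ± 0.21, edgeR adjusted p = 0.169), and it passed in 3 of 6 other blocked fits. These were DESeq2 and, in edgeR, the fits with at least 20 counts in each library (adjusted p = 0.0244) and of protein-coding genes alone (0.0253). CPT1A, the gatekeeper of mitochondrial import that is repressed by HIF in clear cell carcinoma, was at 45.2 and 60.6 CPM and at 130 and 147 CPM. Its values were higher with VHL in both pairs, at log2 0.42 and 0.18, without passing (0.30 ± 0.22, adjusted p = 0.68). CPT2, its partner on the inner membrane, was near level at 56.5 and 52.5 CPM and at 48.6 and 53.8 CPM. ACADM, HADHB and PPARA had opposite signs in the pairs, with blocked log2 changes of 0.06, -0.08 and -0.08. HADHA, the trifunctional protein's other subunit gene, was at 420 and 372 CPM and at 125 and 103 CPM (adjusted p = 0.854). PPARGC1A, a coactivator of mitochondrial genes, was at 182 and 188 CPM and at 112 and 136 CPM (adjusted p = 0.919).

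Counts of pseudogenes named after lipid genes stood apart in replicate 2. The 15 FABP5 pseudogenes held 22 and 18 counts in replicate 1 and 9910 and 10250 in replicate 2, more than FABP5 itself there (3563 and 4427). SCDP1 went from 17 and 4 to 11012 and 11896 counts, and the 2 HADHA pseudogenes from 11 and 13 to 4125 and 3013. Reads of such genes cannot be placed with certainty, because the treatment of reads that fit several places is not given. Adding these counts to the parent gene changed no call. It gave FABP5 a log2 change of 0.43 ± 0.23, SCD -0.09 ± 0.28 and HADHA -0.23 ± 0.24.

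**Figure D4:**
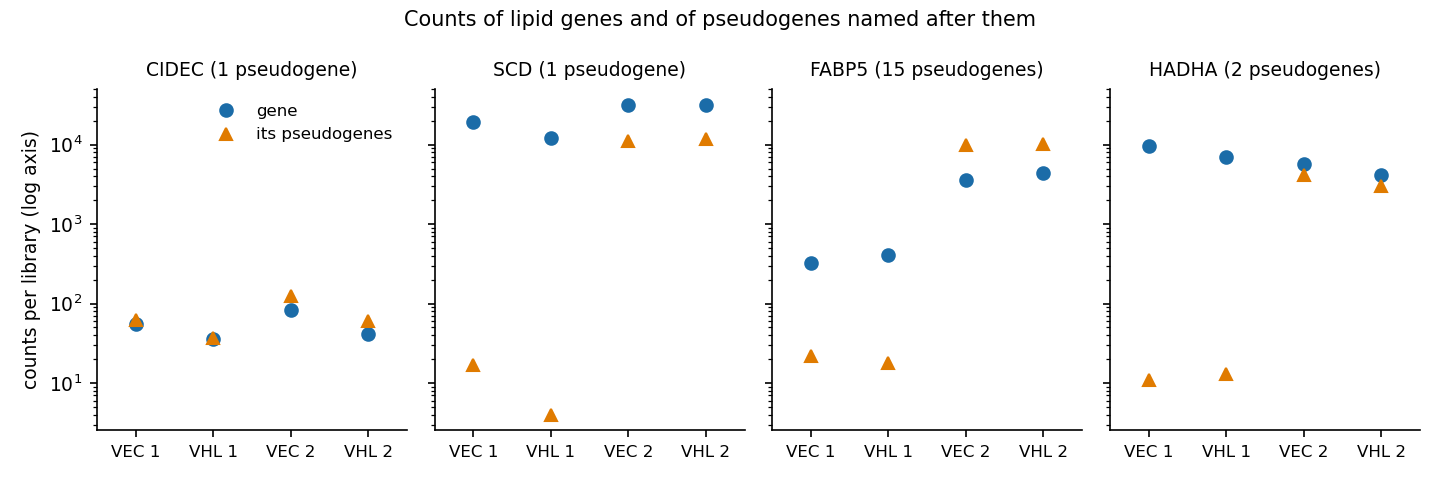
Counts per library (log axis) of 4 lipid genes (circles) and of the pseudogenes named after them, summed (triangles), in VEC and VHL of replicates 1 and 2. Pseudogene counts of SCD, FABP5 and HADHA lie at 22 or below in replicate 1 and at 3013 or above in replicate 2, while CIDEC and its pseudogene lie close together in all libraries.

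A further 146 genes of lipid metabolism were listed from general knowledge of the pathways, 126 of which were tested. Of these, 6 rose and 5 fell, 11 of 126 in all, where 1.15% of protein-coding genes rose and 2.51% fell. GPAT3, an acyltransferase of the first step of glyceride synthesis, rose most clearly, from 51.1 to 151 CPM and from 19.8 to 65.2 CPM (log2 1.64 ± 0.22, adjusted p = 3.45e-11). NCEH1, a neutral cholesteryl ester hydrolase, went from 12.5 to 22.5 CPM and from 12.4 to 27.6 CPM (1.01 ± 0.25, adjusted p = 0.00464). The groups did not overlap for either gene. The elongase gene ELOVL2 rose from few counts (31 to 70 and 33 to 145, log2 1.90 ± 0.47, adjusted p = 0.00407), and DESeq2 gave it no adjusted p. Other elongase genes, ELOVL1, ELOVL4 and ELOVL7, were not called, at log2 -0.01, 0.35 and 0.07. The acyl-CoA synthetases ACSL4 and ACSL1 rose with log2 changes of 0.84 ± 0.23 and 0.80 ± 0.22, though ACSL1 changed by 0.35 in the replicate 1 pair and 1.24 in the other. The ACSL1 call was lost by DESeq2 (adjusted p = 0.101) and without a filter in edgeR (0.0516). ME1, the malic enzyme that supplies NADPH for synthesis, rose by 0.74 ± 0.23 (adjusted p = 0.0459), a call lost without a filter (0.105).

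Among the genes that fell, INSIG2, which holds SREBP in the endoplasmic reticulum when sterol is plentiful, went from 68.3 to 18.2 CPM and from 54.9 to 23.8 CPM (log2 -1.55 ± 0.22, adjusted p = 1.04e-09). Its relative INSIG1 had values in the other direction, at log2 0.31 and 0.67, and was not called by edgeR (adjusted p = 0.246). LRP1, a large endocytic lipoprotein receptor, went from 9.16 to 4.29 CPM and from 20.7 to 5.7 CPM (-1.51 ± 0.30, adjusted p = 9.94e-05). ANGPTL4, a HIF-induced inhibitor of lipoprotein lipase, went from 63 to 14 counts and from 69 to 11 (-2.16 ± 0.59, adjusted p = 0.0132). DESeq2 gave ANGPTL4 no adjusted p, and it did not pass the filter of at least 20 counts in each library. It was called in the 4 other blocked fits that gave it an adjusted p. The groups did not overlap for INSIG2, LRP1 and ANGPTL4. SLC27A2, a fatty acid transporter and very long chain acyl-CoA synthetase, changed by -0.81 and -0.78 in the pairs (-0.80 ± 0.21, adjusted p = 0.0109). EBP, a sterol isomerase of late cholesterol synthesis, fell by 0.75 ± 0.22 on the log2 scale (adjusted p = 0.0334), a call lost without a filter (0.0602). In edgeR, no gene among the further 28 of sterol synthesis and its control rose, with 5 at an unadjusted p under 0.05 in either direction. Genes that DESeq2 called higher there included FDFT1, which makes squalene, and INSIG1.

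**Figure D5:**
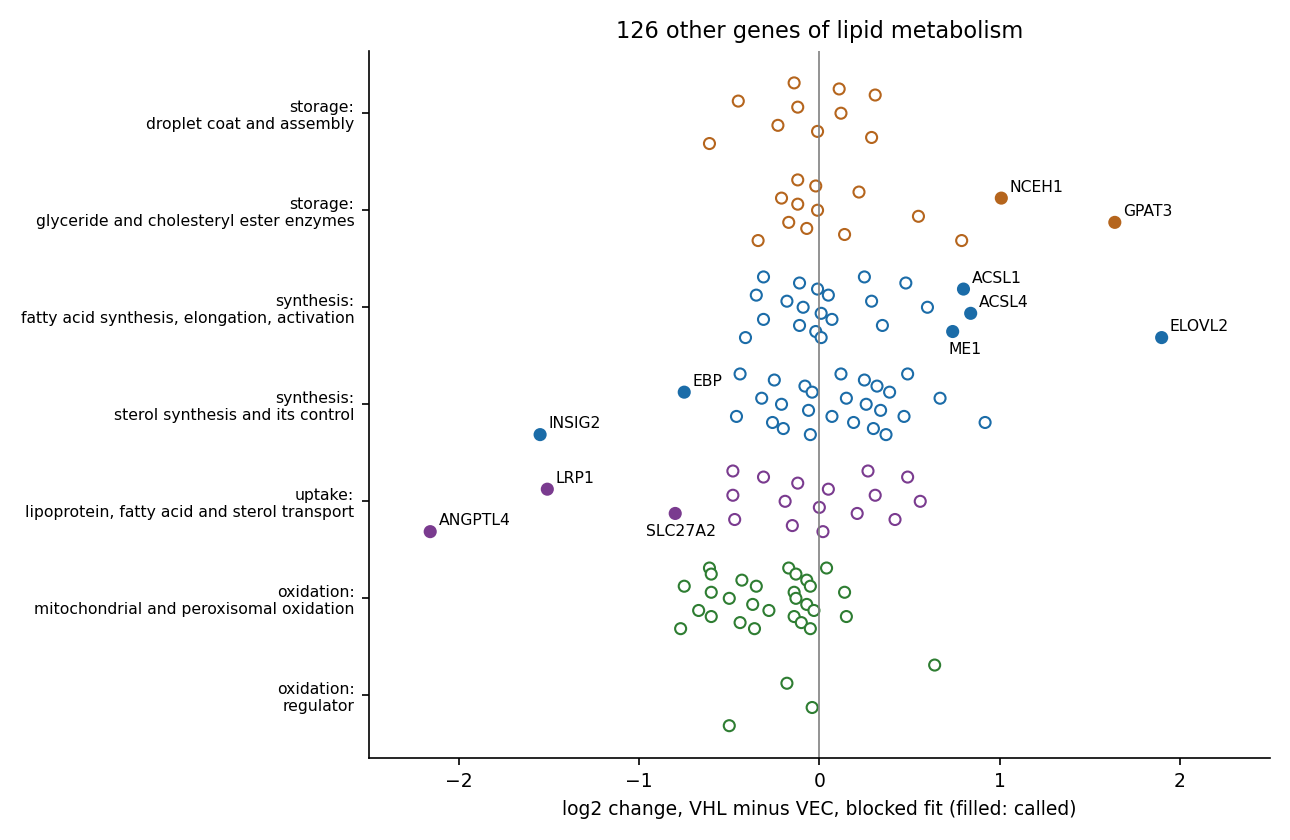
Log2 change (VHL minus VEC, blocked fit) of 126 further genes of lipid metabolism by role, filled and named where called. GPAT3 and ELOVL2 lie farthest to the right and ANGPTL4, INSIG2 and LRP1 farthest to the left, and most genes of mitochondrial and peroxisomal oxidation lie left of 0 without a call.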

How the data were processed

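RNA was measured in 4 UM-RC-2 libraries, placed in groups and numbered by their titles, which also contain the word ChIP-seq. The authors deposited raw counts per gene symbol. Alignment to hg19 is named in the file headers, and featureCounts in the submitters' processing notes. The aligner, annotation, strand use and treatment of multi-mapping reads are not given in the sources used here. Per the labels, replicate 1 is total RNA and replicate 2 polyA RNA, and their alignment files are named in different ways.

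Counts were fitted in R 4.3.3 with edgeR 4.0.16 (TMM, filterByExpr, glmQLFit and glmQLFTest, two-sided), with group and replicate number as terms, over 24417 genes. The number entered as a block because the comparison is defined within it, and deviations from group means correlated at 0.983 between same-numbered libraries. SE was derived from the log2 change and the test's F (change over root F). CPM used TMM-scaled totals, and within-pair changes a prior count of 2. On simulated counts for these 24417 genes, the blocked fit recovered 19 of 100 genes changed by 0.8 on the log2 scale and 95 of 100 changed by 1.6, with 6 false calls. The simulation gave every gene the same dispersion and changed only genes with many counts. It therefore cannot show how many false calls arise where dispersion differs between genes, or the recovery of genes with few counts. RefSeq symbols (GRCh38.p14) matched 96.4% of rows and gave gene classes. Genes named by rule are all 38 lipid genes, called genes of the further list (up to 6 per direction) and VHL and CA9. Cell type markers, pseudogenes and antisense rows come in addition. ELOVL1, ELOVL4 and ELOVL7, which were not called, were named outside this rule. INSIG1, FDFT1 and genes in the closing section were chosen after their values were seen. The members, lists and fit were chosen with earlier results of these data known. Alternatives were DESeq2 1.42.0, its size factors, other filters, protein-coding genes alone, no block and left-out libraries.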

Additional observations from a re-analysis of the deposited data

How the results depend on the processing

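The calls rest on the replicate block. With no replicate block, 0 of the 36 lipid genes, 0 of the 126 further genes and 0 of all genes were called, also with any 1 library left out, and GPAM was at -0.03. The lipid genes' median log2 change was 0.049 without replicate 2 and 0.129 without replicate 1, and between 0.01 and 0.313 with 1 library left out and no block. With the block, DESeq2 called 20 further genes and 1203 in all, and no filter left 2 of 38 lipid genes. At least 20 counts in each library gave 12 of 35 lipid genes and 1181 of 12141 in all. ELOVL5 and VLDLR were called in all 6 blocked alternatives; without a filter PLIN2, LPIN1, FASN, ELOVL6 and SQLE had adjusted p of 0.0558, 0.124, 0.0675, 0.072 and 0.0567. Pseudogene counts were added after seeing the data.

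Genes near 0 changed sign. By DESeq2 and by its size factors GPAM was at 0, AGPAT2 at -0.03, ACLY and CPT2 at -0.01, and CD36 at -0.82 and 0. AGPAT2 was at -0.01 without a filter, 0 under the stricter filter and -0.03 among protein-coding genes, where ACLY and CPT2 were at 0. With no block and 1 library left out, replicates of different RNA type are compared, and log2 changes of several genes took the other sign. Without VEC replicate 1, these were PLIN2 0.2, PNPLA2 -0.15, MGLL 0.12, DGAT1 0.73, ACACB -0.22, SCD 0.02, ELOVL6 -0.04, CD36 -0.77, FABP5 -0.26, CPT1A -0.32, ACADVL 0.43, HADHA 0.92, HADHB 0.51 and EBP 0.76. Without VEC replicate 2, these were GPAM -0.42, AGPAT2 -0.23, ACLY -0.27, CPT2 -0.05, ACADM -0.22, PPARA 0.01 and PPARGC1A -0.13. Without VHL replicate 1, these were GPAM -0.37, AGPAT2 -0.55, ACLY -0.44, SCD 0.01, SREBF1 -0.36, ACADM -0.03, PPARA 0.14 and PPARGC1A -0.11. Without VHL replicate 2, these were PNPLA2 -0.01, MGLL 0.05, DGAT1 0.47, ACACB -0.2, ELOVL6 -0.56, CD36 -10.66, FABP5 -1.17, CPT1A -0.6, CPT2 -0.04, ACADVL 0.02, HADHA 0.45, HADHB 0.15 and EBP 0.08. The blocked fit has 1 residual degree of freedom. In counts simulated with the same dispersion for every gene, it recovered 19 of 100 changes of 0.8 on the log2 scale, all in genes with many counts.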

Other observations

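Of 32 tested genes of fatty acid oxidation outside the 38, a group singled out after its values were seen, 21 were lower with VHL in both pairs, 2 higher in both and 9 opposite, while 32.2% of tested protein-coding genes were lower in both. Their median log2 change was -0.17, beside 0.01 for protein-coding genes, with 0 called by edgeR in the blocked fit over all genes. That fit called 3.10% of all tested genes. An unadjusted p under 0.05 in edgeR was found for 7 of 32. The share was 12.5% of all genes, 18.2% where protein-coding genes were fitted alone and 21.8% where each library needed at least 20 counts. DESeq2 called 6 of 32, and 4.93% of all genes, where genes it gave no adjusted p count as not called. The 8 oxidation genes among the 38 were spread over both directions, with 2 higher in both pairs, 2 lower in both, 4 opposite and a median of -0.03. The 6 were ACAA2, ETFB, ECI1, DECR1 and EHHADH, which were lower, and PPARGC1B, a coactivator, which was higher. ECI1, an enoyl-CoA isomerase, was at 208 and 155 CPM in replicate 1 and at 63.6 and 37.3 CPM in replicate 2 (edgeR adjusted p = 0.132). DECR1, a dienoyl-CoA reductase, changed by -0.42 and -0.44 in the pairs (edgeR adjusted p = 0.406). These genes share libraries and were not tested as a list.

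Several lipid genes were counted almost entirely in replicate 2, in VEC and VHL alike. ACSL6, an acyl-CoA synthetase gene, had 0 counts in both replicate 1 libraries and 1846 and 1662 in replicate 2. HSD17B13, which encodes a droplet protein, had 5 and 7 counts against 1262 and 1146. PPARD, a nuclear receptor for fatty acids, had 12 and 9 counts against 1924 and 1502. PLIN5, a perilipin of oxidative tissue, had 11 and 14 counts against 490 and 497. None of these genes was called, and their values within replicate 1 carry little weight.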
